A study of Homo sapiens with 3 samples.

Results

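Interferon-stimulated genes (ISGs) were examined one by one in MIAPaCa-2, an established human pancreatic carcinoma cell line. The 55 genes asked for were chosen by name, as a list of commonly used ISGs, with earlier results of these data known. Of them, 46 were found by symbol among the 14949 genes of the deposited table. The other 9 (IFI27, IFI44L, IRF7, SAMD9L, CMPK2, XAF1, TRIM22, EPSTI1 and GBP1) were not listed and are not analysed here. Of the 46, 42 had a mean normalized read count of at least 50 over the libraries, and the remaining 4 (OAS1, MX1, IFI44 and RSAD2) are set apart as low-count genes. IFI44 lay just under that limit with a mean of 49.2, and PARP10 just above it with 56.6.

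The series holds 3 poly(A) RNA libraries, 1 per group. The sh-CTL cells carried a control short hairpin and received no drug. The sh-METTL3 cells carried a hairpin against METTL3, whose product, as part of a larger complex, writes N6-methyladenosine on mRNA, and also received no drug. The sh-CTL + PLK1i cells were the control hairpin line treated with NMS-P937, an inhibitor of the mitotic kinase PLK1, at 80 nM for 24 hr. These are called the control, the knockdown and the PLK1i library below. All 3 groups were therefore hairpin-carrying cells of 1 line, no vehicle was named for the untreated groups, and whether the hairpin lines were single clones was not given in the sources used here. With 1 library per group, the hairpin, the line that carries it and the culture cannot be told apart, and no test or p-value is given. Both comparisons with the control use the same control library. Each log2 change below is the difference of log2(normalized read count + 1), and the range after it is an exact (Clopper-Pearson) 95% interval of the read ratio, which covers counting error only and compares libraries, not conditions. Fewer cells expressing a gene and less RNA per cell cannot be told apart in such bulk libraries.

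The libraries held 37449329 reads in listed genes for the control, 46944898 for the knockdown and 47727520 with PLK1i. Reads are given as recovered from the table, so an equal level gives more reads in the deeper knockdown and PLK1i libraries, and every change is taken after division by the size factors of 0.858, 1.08 and 1.09. METTL3 had 3378 reads in the control, 1781 in the knockdown and 4223 with PLK1i, so its normalized level in the knockdown was 41.9% of that in the control. The epithelial keratins KRT8, KRT18 and KRT19 summed to between 3222 and 4192 CPM (reads scaled to a common library total) per library, whereas EPCAM and CDH1 were not listed. Of 6 leukocyte markers only CD14 and LYZ were listed, at 2.85 to 4.43 CPM together. Of 5 fibroblast markers COL1A2 and COL1A1 were listed, at 933 to 1179 CPM together, nearly all of it COL1A2. The part of these markers in the results below was not tested.

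Interferons are secreted proteins that cells release after sensing foreign or misplaced nucleic acid. Type I and type III interferons bind cell surface receptors whose JAK family kinases activate a transcription factor complex that contains STAT2 and IRF9, and this complex binds the interferon-stimulated response element (ISRE) in the promoters of ISGs. Many ISGs also have a basal level in tumor cell lines without added interferon, and their products block virus entry, translation or replication, tag proteins with ISG15, or feed back on the pathway.

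The promoters of 5 members are shown with the ISRE core marked where it occurs. The sequences are the 250 bases before an annotated start site, from RefSeq (GRCh38.p14), 5′ to 3′ on the gene's strand, and capitals mark the ISRE core, which is GAAA, any 2 bases and GAAA, or its reverse complement, with overlapping copies written as 1 run. Relative to the control, SAMD9 was the highest and BST2 the lowest member in the knockdown library, HERC5 was higher in both compared libraries, and IFIT3 was the member highest relative to the control in the PLK1i library (1 of its 2 windows with a match is shown). UBE2L6, which among the 42 members with a mean of at least 50 had the third largest difference between the knockdown and the PLK1i library, is shown as a member with no ISRE core in either of its 2 windows, of which 1 is given.
SAMD9, chr7:93117980-93118229, minus strand: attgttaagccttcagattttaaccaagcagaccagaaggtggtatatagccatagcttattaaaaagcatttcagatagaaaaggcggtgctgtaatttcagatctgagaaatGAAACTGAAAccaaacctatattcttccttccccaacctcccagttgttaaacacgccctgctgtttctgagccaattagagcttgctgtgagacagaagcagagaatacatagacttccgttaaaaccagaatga
BST2, chr19:17405631-17405880, minus strand: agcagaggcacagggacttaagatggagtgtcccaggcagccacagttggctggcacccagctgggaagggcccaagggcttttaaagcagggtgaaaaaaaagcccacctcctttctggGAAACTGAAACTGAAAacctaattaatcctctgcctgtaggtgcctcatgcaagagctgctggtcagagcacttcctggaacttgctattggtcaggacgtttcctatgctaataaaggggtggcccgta
HERC5, chr4:88456869-88457118, plus strand: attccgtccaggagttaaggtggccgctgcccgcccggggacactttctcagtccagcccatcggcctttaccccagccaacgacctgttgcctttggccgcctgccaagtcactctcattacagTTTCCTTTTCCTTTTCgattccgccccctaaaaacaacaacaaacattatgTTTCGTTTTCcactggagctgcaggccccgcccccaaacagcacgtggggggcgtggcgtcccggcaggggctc
IFIT3, chr10:89332279-89332528, plus strand: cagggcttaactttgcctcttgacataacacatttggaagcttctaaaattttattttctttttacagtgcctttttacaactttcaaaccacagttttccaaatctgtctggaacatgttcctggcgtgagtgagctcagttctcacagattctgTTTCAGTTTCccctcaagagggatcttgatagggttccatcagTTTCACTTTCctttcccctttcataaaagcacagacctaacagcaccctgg
UBE2L6, chr11:57567936-57568185, minus strand: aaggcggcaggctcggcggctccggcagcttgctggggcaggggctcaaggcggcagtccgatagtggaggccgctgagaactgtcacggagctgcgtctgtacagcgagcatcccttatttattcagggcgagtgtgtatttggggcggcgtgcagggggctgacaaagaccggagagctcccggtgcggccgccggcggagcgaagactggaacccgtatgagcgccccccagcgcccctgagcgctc
For the other 3 members that were at least 2-fold higher in the knockdown, and for ISG15, 1 stretch of 26 bases with an ISRE core is given per gene.
ISG20: acaaactaGAAACTGAAAcagggtcg
DDX60: ggagaaagGAAACCGAAActcccgcc
IFI6: agagagggGAAAATGAAActctgcag
ISG15: tgcctcggGAAAGGGAAACCGAAAct
The core began 69 bases before the start site in ISG20, 53 in DDX60, 156 in IFI6 and 113 in ISG15. IFI6 held 3 such cores and DDX60 held 2.

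Between the knockdown and the control libraries, most members were higher in the knockdown, by small amounts. Of the 42 members with a mean of at least 50, 30 lay above 0 and 12 below, and the median log2 change was 0.25, beside -0.0034 over all 12929 listed genes of that level. HERC5, IFI6, ISG20, DDX60 and SAMD9 were at least 2-fold higher (5 of 42, 11.9%), against 1.93% of all genes. IFI6 lay just inside that threshold at 2.01-fold and UBE2L6 just outside it at 1.98-fold, closer together than their intervals can separate. Only BST2 was at least 2-fold lower (2.38% of members), against 1.78% of all genes. At 1.5-fold, 13 members were higher (background 5.20%) and 3 were lower, namely IRF1, BST2 and GBP2 (7.14%; background 4.81%). The counting interval lay above 0 for 28 members and below 0 for 7, where 28.7% and 30.7% of all genes had such intervals.

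Between the PLK1i library and the control, equal numbers of the 42 members with a mean of at least 50 lay above and below 0. Their values ran from -0.50 to 0.98. The median log2 change was -0.0024 (21 above 0 and 21 below), beside 0.0035 over all genes. No member was 2-fold higher (background 0.449%) or 2-fold lower (background 0.240%). IFIT3, OASL, HERC5, ISG20 and DDX60 were at least 1.5-fold higher (5 of 42, 11.9%; background 1.81%), and no member was 1.5-fold lower (background 1.89%). The interval lay above 0 for 11 members (26.2%; background 25.3%) and below 0 for 10 (23.8%; background 24.8%), shares close to those of all genes.

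**Figure D1:**
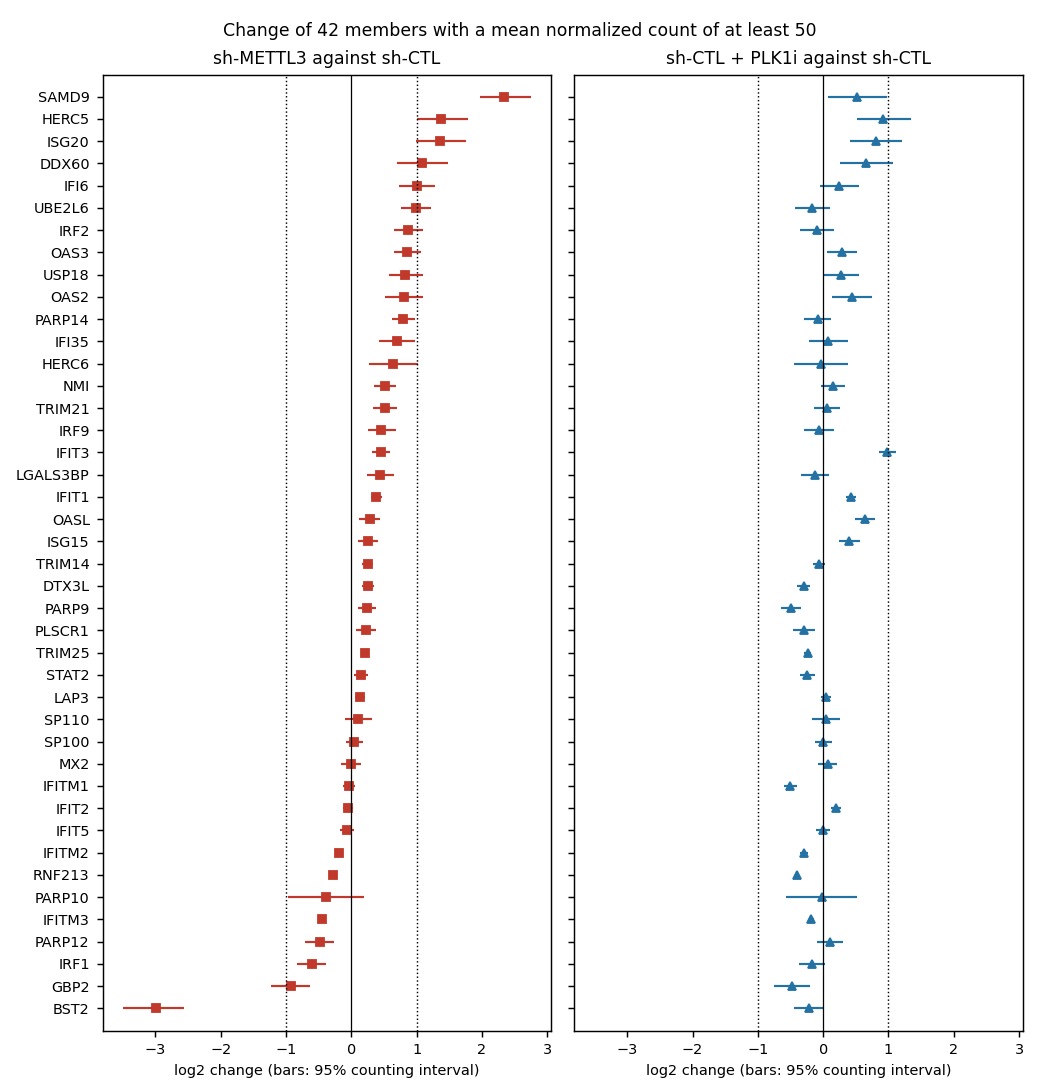
Log2 change against the control, for the knockdown and with PLK1i, of the 42 members with a mean of at least 50. Members are ordered by their change in the knockdown, and bars are 95% counting intervals from 1 library per group. SAMD9 (2.33) and BST2 (-2.99) in the knockdown stand farthest from 0, and IFIT3 (0.98) is the highest member in the PLK1i comparison.

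The weight of the members in the libraries did not follow these counts, and a few abundant genes carried much of it. All 46 members summed to 1508 CPM in the control, 1506 in the knockdown and 1372 with PLK1i. RNF213, IFITM3 and TRIM25 alone held 49.8% of the member reads in the control, 42.9% in the knockdown and 44.3% with PLK1i. Per length, in RPKM (CPM divided by the exon length in kilobases), IFITM3 was the highest member at 89.1 in the control, 65.3 in the knockdown and 77.9 with PLK1i, and OAS1 was the lowest in the control at 0.043. In that order BST2 stood at place 12 of 46 in the control, 33 in the knockdown and 13 with PLK1i. SAMD9 stood at place 41 in the control, 29 in the knockdown and 41 with PLK1i.

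**Figure D2:**
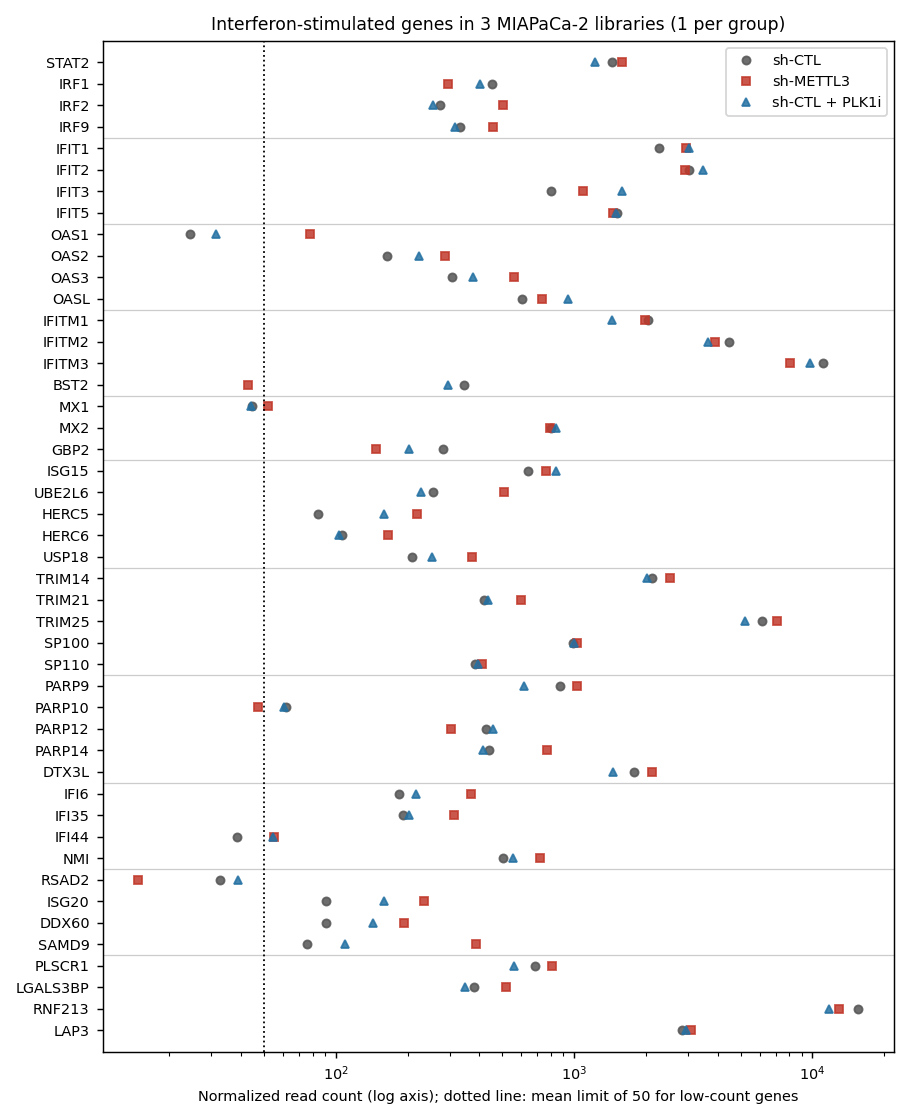
Normalized read count (log axis) of each listed member in the control (sh-CTL), knockdown (sh-METTL3) and PLK1i (sh-CTL + PLK1i) libraries, 1 point per library, with a dotted line at the limit of 50. The knockdown point lies far to the left of the others for BST2 and far to the right for SAMD9, and IFITM3 and RNF213 are the most abundant members in reads.

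Among the transcriptional regulators, the knockdown library was higher for IRF2, IRF9 and STAT2 and lower for IRF1. STAT2, the partner in the ISRE-binding complex, had 1238 reads in the control, 1719 in the knockdown and 1327 with PLK1i. Its log2 change was 0.14 (0.04 to 0.25) in the knockdown and -0.24 (-0.35 to -0.13) with PLK1i, so both libraries differed from the control little and in opposite directions. IRF9, the DNA-binding subunit of that complex, had 283, 491 and 344 reads in the same order. It was higher in the knockdown by 0.46 (0.25 to 0.68), and its PLK1i interval held 0 (-0.06, -0.29 to 0.17). A second gene annotated on the same strand overlaps IRF9, and it had 651, 660 and 751 reads, a change of -0.31 in the knockdown.

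IRF1 and IRF2 are related factors that bind the same element, IRF1 mostly as an activator and IRF2 mostly as its antagonist. IRF1 had 388, 320 and 436 reads in the control, the knockdown and the PLK1i library, a change of -0.61 (-0.83 to -0.39) in the knockdown and -0.17 (-0.37 to 0.03) with the inhibitor. IRF2 had 234, 540 and 278 reads, a change of 0.87 (0.65 to 1.10) in the knockdown and -0.09 (-0.35 to 0.16) with the inhibitor. The knockdown library was thus the lowest of the 3 for IRF1 and the highest for IRF2 after normalization.

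The IFIT genes, which encode proteins that bind viral RNA ends and block translation, lie side by side on chromosome 10. Their median change was 0.31 with PLK1i and 0.17 in the knockdown. IFIT3 (chr10:91087064-91137230, GRCh37) had 686 reads in the control, 1180 in the knockdown and 1720 with PLK1i. The PLK1i library was the highest and the control the lowest, with changes of 0.98 (0.86 to 1.11) with PLK1i and 0.45 (0.31 to 0.59) in the knockdown. Compared directly, IFIT3 was lower in the knockdown than with PLK1i, at -0.53 (-0.64 to -0.43).

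IFIT1, which recognizes the caps of foreign RNA, had 1943, 3183 and 3305 reads in the control, the knockdown and the PLK1i library. Its changes, 0.38 (0.30 to 0.46) in the knockdown and 0.43 (0.34 to 0.51) with the inhibitor, were close to each other. IFIT2, which forms complexes with IFIT1 and IFIT3, had 2589, 3155 and 3755 reads, with changes of -0.05 (-0.12 to 0.03) and 0.20 (0.12 to 0.27). IFIT5, the remaining member, had 1296, 1563 and 1631 reads and both intervals held 0 (-0.06, -0.17 to 0.05, and -0.01, -0.12 to 0.10). LIPA, annotated on the opposite strand over IFIT1, IFIT2 and IFIT3, had 22268, 21780 and 25554 reads, and a same-strand gene over IFIT2 had 8562, 9227 and 7375. The library kit marks strand, but the counting setting was not given in the sources used here, so reads of such overlapping genes cannot be told apart.

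The OAS genes encode enzymes that make 2′-5′-linked oligoadenylate and thereby activate the RNA-degrading RNase L. OAS2, OAS3 and OASL were higher than the control in both libraries, with median changes of 0.80 in the knockdown and 0.44 with PLK1i. OAS3 had 263 reads in the control, 600 in the knockdown and 407 with PLK1i, with changes of 0.86 (0.65 to 1.07) and 0.29 (0.06 to 0.52). OAS2 had 141, 310 and 243 reads, with changes of 0.80 (0.51 to 1.10) and 0.44 (0.14 to 0.75). For both of these enzymes the knockdown was the highest library. OASL, a relative that lacks the enzyme activity, had 519, 794 and 1027 reads, and the order was the other way round: 0.28 (0.12 to 0.44) in the knockdown and 0.64 (0.49 to 0.80) with PLK1i.

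The membrane restriction factors had values below 0 in both comparisons, with medians of -0.32 in the knockdown and -0.26 with PLK1i. IFITM1, IFITM2 and IFITM3 encode small membrane proteins that hinder the fusion of entering viruses, and they lie next to each other on chromosome 11. IFITM3 had 9486 reads in the control, 8721 in the knockdown and 10573 with PLK1i, with changes of -0.45 (-0.49 to -0.41) and -0.18 (-0.22 to -0.14). IFITM2 had 3830, 4224 and 3953 reads, with changes of -0.19 (-0.25 to -0.13) and -0.30 (-0.36 to -0.23). IFITM1 had 1745, 2147 and 1558 reads, with an interval that held 0 in the knockdown (-0.03, -0.12 to 0.06) and a change of -0.50 (-0.60 to -0.41) with the inhibitor. IFITM3 was thus lowest in the knockdown, whereas IFITM1 and IFITM2 were lowest with PLK1i. These genes are near-identical copies in part: 37.8% of the 31-base stretches of IFITM1 transcripts, 29.8% of IFITM2 and 26.8% of IFITM3 also occur in other genes, so the split of reads among them is uncertain.

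BST2 encodes tetherin, which holds budding viruses at the cell surface, and it was the member with the largest difference of all. It lies at chr19:17513748-17516439 (GRCh37) and had 296 reads in the control, 46 in the knockdown and 322 with PLK1i. The knockdown library stood far below the other 2, at 12.4% of the normalized control level (8.10-fold lower). The log2 change was -2.99 (-3.50 to -2.57) in the knockdown and -0.22 (-0.45 to 0.01) with PLK1i. Compared directly, the knockdown was lower than the PLK1i library, at -2.77 (-3.28 to -2.35). Neighbours here are the listed genes within 5 Mb that had a mean of at least 50 and were not members. The 171 neighbours of BST2 had a median change of 0.19 in the knockdown, above 0 where BST2 itself was far below.

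Of the dynamin-like GTPases, MX2, which blocks the nuclear entry of viral genomes, had 684, 857 and 909 reads in the control, the knockdown and the PLK1i library. Both of its intervals held 0 (-0.01, -0.15 to 0.14, and 0.07, -0.08 to 0.21). GBP2, a guanylate-binding protein induced mainly by interferon gamma, had 241, 159 and 219 reads. It was lower in both libraries, at -0.93 (-1.23 to -0.64) in the knockdown and -0.48 (-0.75 to -0.21) with the inhibitor, and 10.6% of its 31-base stretches also occur in other genes.

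All 5 genes of the ISG15 pathway were higher in the knockdown, with a median change of 0.83, and 0.27 with PLK1i. ISG15, the ubiquitin-like protein itself, had 546 reads in the control, 819 in the knockdown and 913 with PLK1i. Its changes were 0.25 (0.10 to 0.41) and 0.40 (0.25 to 0.56), so the control was the lowest library. UBE2L6, the conjugating enzyme, had 220, 549 and 248 reads, and the knockdown stood apart from the others with a change of 0.99 (0.76 to 1.22) beside -0.17 (-0.44 to 0.10) with the inhibitor. It was 2.23-fold higher in the knockdown than with PLK1i (log2 1.15, 0.94 to 1.38).

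HERC5, the main ligase for ISG15, lies at chr4:89378270-89427314 (GRCh37) and had 72, 237 and 173 reads in the control, the knockdown and the PLK1i library. Both compared libraries were above the control, by 1.38 (1.0 to 1.79) and 0.92 (0.52 to 1.34). HERC6, a related ligase on the same chromosome, had 91, 178 and 112 reads and was higher in the knockdown by 0.63 (0.26 to 1.02), while the inhibitor interval held 0 (-0.04, -0.45 to 0.37). USP18, which removes ISG15 and restrains the receptor, had 179, 401 and 274 reads, with changes of 0.83 (0.57 to 1.09) and 0.27 (-0.00 to 0.55). Of its 31-base stretches, 16.8% also occur in other genes, mostly in USP41, so its reads may be split.

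Of the TRIM and nuclear body genes, TRIM21, a cytosolic antibody receptor and ubiquitin ligase, had 357 reads in the control, 642 in the knockdown and 471 with PLK1i. It was higher in the knockdown by 0.51 (0.33 to 0.71), and the inhibitor interval held 0 (0.06, -0.14 to 0.26). TRIM25, the ligase that acts on the RNA sensor RIG-I, was abundant, with 5253, 7661 and 5653 reads, and its small changes had opposite signs, 0.21 (0.16 to 0.26) and -0.24 (-0.29 to -0.18). TRIM14, an adaptor in antiviral signalling, had 1826, 2735 and 2204 reads, with changes of 0.25 (0.17 to 0.34) and -0.07 (-0.16 to 0.02). The 52 neighbours of TRIM14, as defined for BST2, had a median change of 0.33 in the knockdown, about as large as its own. NANS, which overlaps TRIM14 on the opposite strand, had 1701, 2741 and 2364 reads. SP100, a component of nuclear bodies, had 850, 1104 and 1080 reads, and SP110, its relative, had 328, 444 and 427. For both, each interval held 0, with changes between 0.00 and 0.11.

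PARP9 and DTX3L form a complex that attaches ubiquitin, and their genes overlap head to head on chromosome 3. PARP9 had 744, 1106 and 670 reads in the control, the knockdown and the PLK1i library, with changes of 0.24 (0.11 to 0.38) and -0.49 (-0.64 to -0.34). DTX3L had 1535, 2298 and 1582 reads, with changes of 0.25 (0.16 to 0.35) and -0.30 (-0.40 to -0.20). The partners thus had like values in each comparison: slightly higher in the knockdown and lower with the inhibitor, and reads over their shared stretch cannot be told apart without the strand setting. PARP14, a mono-ADP-ribosyltransferase on the same chromosome, had 377, 826 and 450 reads, and it was the only member with a mean of at least 500 that was 1.5-fold higher in the knockdown, at 0.80 (0.62 to 0.98) beside -0.09 (-0.29 to 0.12). PARP12, an enzyme of the same class on chromosome 7, went the other way, with 366, 329 and 497 reads and changes of -0.48 (-0.70 to -0.27) and 0.10 (-0.10 to 0.30). The 630 other listed genes of chromosome 7 had a median change of -0.25 in the knockdown, and the 38 neighbours of PARP12 had -0.15. SAMD9, a member on the same chromosome, was higher in the knockdown, at 2.33. The part of position in these values was not tested. PARP10, also a mono-ADP-ribosyltransferase, had 53, 51 and 66 reads, and both intervals held 0 (-0.38, -0.97 to 0.20, and -0.02, -0.57 to 0.53). The far more abundant GRINA (4852, 5118 and 6708 reads) overlaps PARP10 on the opposite strand.

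IFI6, IFI35 and NMI were each higher in the knockdown, with a median of 0.70. IFI6, a membrane protein that limits the formation of viral replication sites, had 157, 397 and 236 reads, and its changes were 1.0 (0.74 to 1.28) in the knockdown and 0.25 (-0.05 to 0.55) with the inhibitor. Of its 31-base stretches, 19.3% also occur in other genes. IFI35, which binds NMI, had 164, 336 and 219 reads, with changes of 0.70 (0.43 to 0.98) and 0.08 (-0.22 to 0.38). NMI had 429, 773 and 604 reads, with changes of 0.52 (0.35 to 0.69) and 0.15 (-0.03 to 0.33). For each of these genes the knockdown was the highest library and the inhibitor interval held 0.

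Among the inhibitors of nucleic acid and replication, SAMD9, ISG20 and DDX60 had medians of 1.36 in the knockdown and 0.65 with PLK1i. RSAD2, a low-count gene of the same group that is left out of these medians, had a change in the opposite direction in the knockdown (-1.09) and is described with the low-count genes. SAMD9, a cytosolic protein that restricts poxviruses and cell growth, lies at chr7:92728826-92747336 (GRCh37) and had 65 reads in the control, 416 in the knockdown and 118 with PLK1i. The knockdown library was 5.09-fold higher than the control, at 2.33 (1.97 to 2.75), and the PLK1i library was higher by 0.51 (0.07 to 0.98). Compared directly, SAMD9 was higher in the knockdown than with PLK1i by 1.82 (1.53 to 2.14). Its 33 listed neighbours within 5 Mb had a median change of -0.086 in the knockdown.

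ISG20, an exonuclease that degrades single-stranded RNA, had 78, 253 and 173 reads in the control, the knockdown and the PLK1i library, with changes of 1.36 (0.99 to 1.75) and 0.80 (0.41 to 1.21). DDX60, a helicase-like protein linked to RNA sensing, had 78, 208 and 156 reads, with changes of 1.08 (0.70 to 1.48) and 0.65 (0.26 to 1.07). In both genes the knockdown was the highest library, the PLK1i library came next, and the control was the lowest.

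The other members had small values. RNF213, a giant ubiquitin ligase and the member with the most reads, had 13368, 13918 and 12795 in the control, the knockdown and the PLK1i library, and it was lower in both comparisons, at -0.27 (-0.31 to -0.24) and -0.40 (-0.44 to -0.37). LGALS3BP, a secreted glycoprotein that binds galectins, had 325, 557 and 378 reads, with changes of 0.45 (0.25 to 0.65) and -0.12 (-0.34 to 0.10). PLSCR1, a lipid-moving membrane protein, had 588, 869 and 607 reads, with changes of 0.23 (0.08 to 0.39) and -0.29 (-0.46 to -0.13). LAP3, a leucine aminopeptidase, had 2438, 3350 and 3191 reads, with changes of 0.13 (0.05 to 0.20) and 0.05 (-0.03 to 0.12). RNF213 was the only one of these with a lower knockdown value.

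The low-count genes rest on few reads. OAS1, the smallest of the OAS enzymes, had 21 reads in the control, 84 in the knockdown and 34 with PLK1i, with changes of 1.63 (0.97 to 2.43) and 0.34 (-0.47 to 1.21). RSAD2, which encodes the antiviral enzyme viperin, had 28, 16 and 42 reads, with changes of -1.09 (-2.12 to -0.20) and 0.24 (-0.48 to 0.99). OAS1 was thus highest and RSAD2 lowest in the knockdown, beyond 2-fold, but among the 2020 genes with a mean under 50, 13.0% were 2-fold higher and 10.4% were 2-fold lower. MX1, a GTPase that traps viral nucleocapsids, had 38, 56 and 48 reads and its intervals held 0 (0.22, -0.39 to 0.86, and -0.00, -0.65 to 0.65). IFI44, an ISG of little known function, had 33, 59 and 59 reads, and both of its intervals held 0 as well (0.50, -0.13 to 1.17, and 0.49, -0.14 to 1.16).

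The values differed with the level of the member. The 21 members with a mean from 50 to 500 had a median of 0.70 in the knockdown, beside 0.055 for all genes of that level, and the 21 with a mean of at least 500 had 0.21, beside -0.017. All 5 members that were 2-fold higher came from the lower range (23.8%; background 4.93%). In the upper range PARP14 alone was 1.5-fold higher (4.76%; background 2.03%). With PLK1i the medians were 0.059 in the lower range, beside -0.016 for all genes of that level, and -0.070 in the upper range, beside 0.0073.

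**Figure D3:**
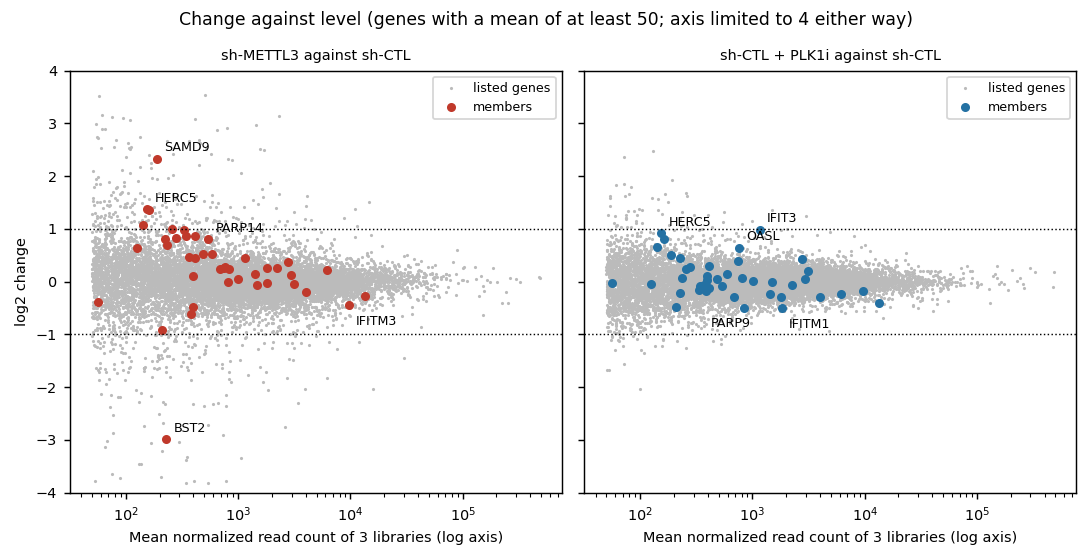
Log2 change against mean normalized read count (log axis) for listed genes with a mean of at least 50 (grey) and the members (colour), in the knockdown and with PLK1i against the control; genes beyond 4 either way lie outside the axis. SAMD9 and BST2 lie farthest outside the dotted 2-fold lines in the knockdown, and no member does with the inhibitor.

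Compared directly, the knockdown was higher than the PLK1i library for 29 of the 42 members and lower for 13, with a median of 0.37 beside -0.0038 over all genes. UBE2L6 and SAMD9 were at least 2-fold higher (4.76%; background 2.21%), and BST2 was at least 2-fold lower (2.38%; background 2.27%). Of the IFIT genes, IFIT3 (-0.53) and IFIT2 (-0.24, -0.31 to -0.17) were lower in the knockdown than with PLK1i, and the intervals of IFIT1 (-0.04, -0.12 to 0.03) and IFIT5 (-0.05, -0.15 to 0.05) held 0.

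Across the genome, the listed members lay on 17 chromosomes. The median change of the neighbours of a member ran from -0.15 around PARP12 to 0.33 around TRIM14 in the knockdown. Because these medians span a narrow range, a member with a large change lies far from any of them by arithmetic alone. Whether position has a part in the change of any member was not tested.

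**Figure D4:**
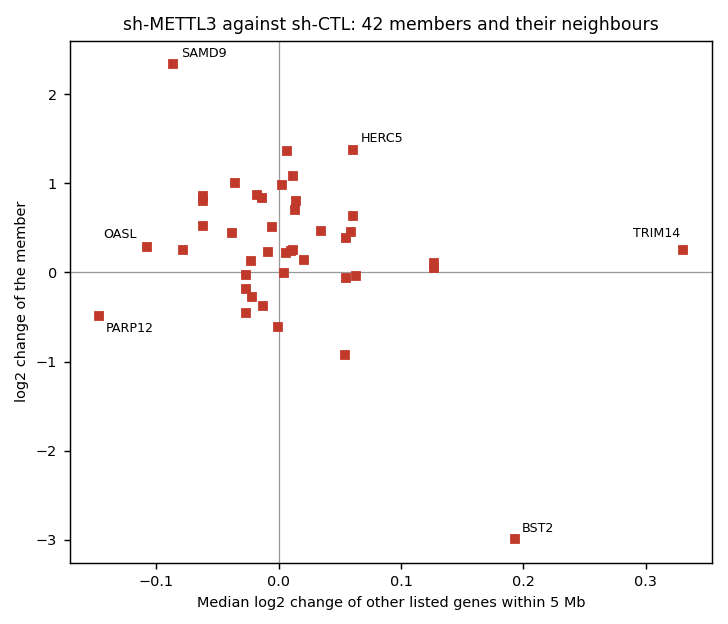
Log2 change in the knockdown against the control (vertical axis) of the 42 members with a mean of at least 50, 1 point per member. The horizontal axis is the median log2 change of the listed genes of that level within 5 Mb, members left out. SAMD9 (2.33 beside -0.086) and BST2 (-2.99 beside 0.19) lie far from the medians of their neighbours.

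Among the promoters, the ISRE core was found in 3.57% of the 35116 RefSeq windows, which run from 250 bases before to 50 after a start site, and in 30 of 47 windows (63.8%) of the listed members. Counted by gene, 26 of the 37 listed members in the table had a match (70.3%), and the other 9 were not in the table. The share was 4.38% of all 27305 genes in that table and 3.68% of listed genes with a mean of at least 50. Because the members were chosen as ISGs, a high share follows in part from that choice. The other element searched on both strands, TTCNNNGAA, the core bound by STAT dimers after interferon gamma, was found in 7.66% of all windows and in 13 of 47 member windows (27.7%). The 23 members with an ISRE core and a mean of at least 50 had median changes of 0.38 in the knockdown and 0.059 with PLK1i. The 10 such members without a match, among them UBE2L6, STAT2 and IRF9, had medians of 0.18 and -0.11. The 331 other genes with an ISRE core had medians of 0.0080 and 0.012. At 1.5-fold, 7 of the 23 members with the core and 3 of the 10 without it were higher in the knockdown. With PLK1i these were 4 of 23 and 0 of 10. Among other genes, 20 of 331 with the core and 414 of 9264 without it were 1.5-fold higher in the knockdown. With PLK1i these were 7 of 331 and 129 of 9264. Of the 9 members not in the promoter table, 3 were 1.5-fold higher in the knockdown and 1 with PLK1i. Whether the core has a part in these changes was not tested. The 5 members that were 2-fold higher in the knockdown held the core, as did BST2, the lowest member, and most members. A match says only that these letters occur in the window.

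Upstream of the members, a list of 21 genes held ligands, receptors, kinases, signal transducers and feedback inhibitors, and 13 of them were listed. The 8 ligands (IFNB1, IFNA1, IFNE, IFNK, IFNL1, IFNL2, IFNL3 and IFNG) were not listed and are not analysed here. In the knockdown, none of the 13 was 2-fold higher and 1 was 2-fold lower, 3 intervals lay above 0 and 5 below, beside 28.7% and 30.7% of all genes. The lower gene was SOCS1, a feedback inhibitor of JAK kinases, with 298 reads in the control, 171 in the knockdown and 320 with PLK1i and a change of -1.13 (-1.41 to -0.86). SOCS3, a related inhibitor, had 526, 984 and 562 reads and went the other way, at 0.57 (0.42 to 0.73). The kinase JAK2 had 487, 813 and 609 reads and was higher by 0.41 (0.24 to 0.57) in the knockdown. With PLK1i, none of the 13 passed 2-fold in either direction, 2 intervals lay above 0 and 5 below, beside 25.3% and 24.8% of all genes. The type I receptor subunit IFNAR2 had 1307, 1522 and 1339 reads and was the lowest of these with the inhibitor, at -0.31.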

How the data were processed

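Total RNA from 3 MIAPaCa-2 cultures was sequenced as stranded poly(A) libraries. Per the labels, the submitters' processing notes name FastQC 0.11.9, STAR 2.7.10, RSEM 1.3.3 and hg19. The tool that normalized the table and its filter on low genes were not given in the sources used here. The values deposited by the authors were log2 values, and their steps showed them to be log2(read count divided by a size factor, plus 4). Whole reads were recovered from those steps: 100% of values below 2000 reads came out within 0.1 of a whole number in each library.

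Read counts were divided by the size factors inferred from those steps, and changes were taken as log2 differences after adding 1. Exact 95% Clopper-Pearson intervals cover counting error only. The steps were tested on simulated data. Gene positions and exon lengths came from GENCODE on GRCh37, and promoters from RefSeq on GRCh38.p14, which are different builds. Python 3.11.15, pandas 2.3.3 and scipy 1.17.1 were used.

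All listed members were named. The members and lists were chosen with earlier results of these data known. With 1 library per group there was no test. Other pseudocounts, scalings, limits on the mean and folds were tried.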

Additional observations from a re-analysis of the deposited data

How the results depend on the processing

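The counts of members past 2-fold depended on the fold and on the limit on the mean, and the other counts and medians stayed near their values under the other settings tried. In sh-METTL3 against sh-CTL, 5 members were higher at 2-fold, 13 at 1.5-fold, 1 at 4-fold and 1 with a mean of at least 200. The lower members numbered 1 at 2-fold, 3 at 1.5-fold, 2 with a mean of at least 20 and 2 with no limit. In sh-CTL + PLK1i against sh-CTL, 0 were higher at 2-fold and 5 at 1.5-fold. For sh-METTL3 against sh-CTL + PLK1i, 2 were higher at 2-fold, 8 at 1.5-fold, 0 at 4-fold and 1 with a mean of at least 200, and 1 was lower at 2-fold, 2 with a mean of at least 20 and 2 with no limit. These follow from the settings' own construction. No share of all genes was taken at 4-fold, at the other limits on the mean, or at 1.5-fold in the direct comparison. Those counts show only how the setting moves the number. Among single-gene values, 965 stayed within counting error and 1 moved, RNF213 in the direct comparison, which was 0.17 with upper-quartile scaling. Other scalings shifted the median gene by at most 0.036. No paired analysis was possible because each group holds 1 library, and for the same reason no library could be left out. Few reads limit OAS1, MX1, IFI44, RSAD2 and PARP10, whose intervals are wide.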
